A study of Mus musculus with 13 samples.

Results

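The histone cluster genes are the genes of the core histones H2A, H2B, H3 and H4 and of the linker histone H1 that lie mostly in clusters of the mouse genome. They were chosen here as every row of the deposited expression table whose gene name begins with Hist1h, Hist2h, Hist3h or Hist4h, which gave 70 of 53465 genes. Of these, 55 lie in the Hist1 cluster on chromosome 13 and Hist1h2al lies apart on the same chromosome (chr13:51202727-51203065). A further 10 lie in the Hist2 cluster on chromosome 3 and 3 in the Hist3 cluster on chromosome 11, and Hist4h4 lies alone on chromosome 6 (GRCm38). The 70 members comprise 6 H1, 20 H2A, 19 H2B, 12 H3 and 13 H4 genes, of which 67 are annotated as protein coding and 3 as pseudogenes.

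Most of these genes are replication dependent. They are transcribed in S phase, when newly copied DNA has to be packed into nucleosomes, and their mRNAs are the known exception among protein-coding transcripts in that they end in a short stem-loop bound by the protein SLBP instead of a poly(A) tail. RNA selected on poly(T) beads therefore holds little of them, apart from members such as Hist1h1c, Hist1h2bc and Hist2h2be, which are known to give polyadenylated mRNA as well.

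Bulk RNA of 10 MP tumors was compared with that of 3 ovaries from wild-type (WT) C57BL/6 mice that had received no treatment. The tumors are EPO-GEMM tumors (labelled Myc;p53-/-), which arose in WT C57BL/6 females after the ovary was electroporated, at 8 to 12 wk of age, with a MYC transposon and a CRISPR-Cas9 vector against Trp53. The labels carry the same 8 to 12 wk for the WT samples, and the age at collection is not given in the sources used here for either group. Every library was polyA selected and read from 1 end over 76 bp. Electroporation does not choose a cell type, and whole tumors taken at end point still hold host cells. The library names carry 3 project numbers, called here project 1 (the WT ovaries and MP tumors 1 to 3), project 2 (MP tumors 4 to 6) and project 3 (MP tumors 7 to 10), so project and condition can be told apart within project 1 alone.

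Values are TPM (a transcript level per gene length that sums to 1000000 in each library). Reads worked back from TPM came to between 31445004 and 64013840 per WT ovary and between 3892690 and 19906507 per MP tumor. Trp53, the targeted gene, was measured at 80.7, 85.0 and 85.4 TPM in the WT ovaries and at 4.30 to 26.0 TPM in 9 MP tumors, while the library labelled MP tumor 10 held 187 TPM, above every WT ovary. A frameshift need not lower a transcript, so this level checks the label in part only. In MP tumor 2, the ribosomal RNA rows mt-Rnr1, mt-Rnr2 and CT010467.1 took 34.4% of all TPM. These 2 libraries stood apart from the others, and results that rest on them are given with and without them. Ovarian cell markers were lower in the tumors, with 8 of 9 granulosa and theca genes and 9 of 9 oocyte genes called lower. The summed level of the first list was 11709 to 15783 TPM in WT ovaries and 8.31 to 1604 TPM in MP tumors, and that of the second was 350 to 528 TPM against 1.53 to 32.6 TPM. Fshr and Cyp19a1 of granulosa cells were listed at 0 in 9 tumors each, as were the oocyte genes Zp1 and Zar1. Of 8 epithelial and HGSOC markers tested 4 were called lower, Pax8 was listed at 0 in 6 tumors, and the list summed to 8.28 to 1201 TPM in MP tumors, around the 289 to 320 TPM of WT ovaries. Erythroid markers were higher, with 2 of 4 genes called and sums of 222 to 425 TPM in WT ovaries against 448 to 6126 TPM in MP tumors. Stroma and endothelium markers summed to 674 to 846 TPM in WT ovaries and 13.5 to 1520 TPM in MP tumors (1 of 5 called lower), and leukocyte markers to 73.0 to 80.9 TPM against 9.998 to 106 TPM (0 of 6 called). In the comparison within project 1 given later, 5 of 5 genes of each of these last lists that were tested were called lower, beside 62.4% of all genes tested. The part of other cell types in the results on members was not tested. In bulk tissue, fewer cells of a type and less RNA per cell cannot be told apart.

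The stem-loop that ends a replication-dependent transcript was looked for in the annotated transcripts (GENCODE M21, GRCm38) as the letters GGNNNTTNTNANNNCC with 6 paired bases on each side. It was found in 46 of 70 members (65.7%) against 79 of 55450 genes in all (0.142%), and on the opposite strand in 0 members and 46 genes. It is shown, with 5 bases on either side, for 6 members described later, to show forms of the stem and loop, of which Hist1h1c, Hist3h2a and Hist3h2ba carry the same one. Stem bases are in capitals and the loop and flanks in lower case.
Hist1h1c, chr13:23739507-23739532, plus strand: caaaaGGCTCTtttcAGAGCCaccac
Hist3h2a, chr11:58955167-58955192, plus strand: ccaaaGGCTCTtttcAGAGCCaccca
Hist3h2ba, chr11:58949344-58949369, plus strand: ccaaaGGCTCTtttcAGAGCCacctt
Hist1h3g, chr13:23535884-23535909, plus strand: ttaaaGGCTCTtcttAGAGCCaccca
Hist1h4i, chr13:22040961-22040986, minus strand: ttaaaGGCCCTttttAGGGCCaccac
Hist4h4, chr6:136803993-136804018, minus strand: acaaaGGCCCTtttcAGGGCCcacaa
The stem GGCTCT with the loop tttc, as in Hist1h1c, was shared by 26 members, and the stem GGCCCT with the same loop, as in Hist4h4, by 7, all of them H4 genes. Hist1h3g was the 1 member with the loop tctt after the stem GGCTCT. Hist1h2bc, Hist2h2be, Hist1h1a, Hist1h1b and Hist1h4k, also among the members with the highest levels, hold no such letters in their annotated transcripts, which says nothing of sequence beyond the annotated end.

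The annotation also gives how far a transcript runs past the stem-loop, and members were parted by this into 3 classes. In 23 members more than 100 bases followed it, as in Hist1h4i (330 bases), Hist1h1c (840) and Hist3h2a (1643). Their median level was 1.71 TPM (mean over the 13 libraries), and 17 had a mean of at least 1 TPM. In another 23 the transcript ended within 100 bases, as in Hist1h3g (47 bases), the median was 0.568 TPM, 11 reached 1 TPM and the highest was 7.73 TPM. The last 24 had no stem-loop in the annotated transcript, and their median was 0.185 TPM although Hist1h2bc, at 114 TPM, is among them. These levels are per annotated length, which enters the TPM, and the median length was 1249, 485 and 402 bases in the 3 classes. The split was made after the data had been seen and is a description.

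**Figure D1:**
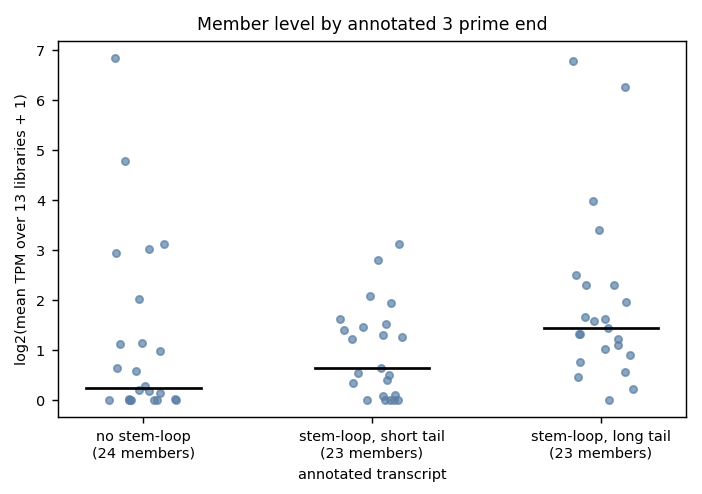
Level of each histone cluster gene, as log2 of the mean TPM over 13 libraries plus 1 (vertical axis), for members with no stem-loop in the annotated transcript, with a transcript that ends within 100 bases of it (short tail) and with a longer one (long tail). Each point is 1 gene, the bar is the median (at mean TPM of 0.185, 0.568 and 1.71) and points are spread sideways for clarity. The few highest points lie in the first and the last class.

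Promoters were matched by symbol for 61 of 70 members (RefSeq, GRCm38.p6, 250 bases before to 50 after the start). CCAAT, on either strand, was found in 85.2% of them against 37.4% of 32817 promoters of the same length. TATAAA was found in 57.4% against 13.6%, and ATTTGCAT, the octamer element known from H2B promoters, in 22.95% against 1.74%. CACGTG was in 0 of the 61 and in 7.15% of all promoters. A match is a description of letters and not of a bound site.

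Of 70 members, 57 were detected (above 0) in at least 1 of the 13 libraries, 11 in all of them and 13 in none. A mean of at least 1 TPM was reached by 36 members and a mean of at least 10 TPM by 5. Together the members held 48090 reads, which was 0.0160% to 0.0215% of the reads of a WT ovary and 0.00229% to 0.0409% of those of an MP tumor. The H1, H3 and H4 genes were detected in 6 of 6, 10 of 12 and 12 of 13 cases, the H2B genes in 15 of 19 and the H2A genes in 14 of 20. Of the 57 detected members, 9 held fewer than 10 reads over all libraries.

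Reads from near-identical copies limit these counts. Of the 13 members at 0 everywhere, 12 share more than 80% of their 76-base windows (84.6% to 100%) with transcripts of other genes, so that a read from them would match several places. The exception was Hist1h2ba, a testis-type H2B, with 33.0%. Among the 57 detected members, 5 were above 80% and 40 above 20%, and how the authors' counting treated such reads is not given in the sources used here. Exons of 26 members also overlap another gene, and without a stated strand setting such reads cannot be told apart. A count of 0 leaves room for up to 3 reads, which for a gene of 1 kb is 0.154 TPM in the deepest library and 2.37 TPM in the shallowest. Such limits cover counting error only. The other testis-type members were barely seen: Hist1h2aa held 1 read, in WT ovary 2, and Hist1h1t reached 0.867 TPM in MP tumor 5, from 1 read.

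The number detected per library depended on depth. It was 45 to 48 in WT ovaries (median 46) and 14 to 52 in MP tumors (median 44). Cut to the 3892690 reads of the shallowest library, 19.7 to 23.8 members would be expected above 0 in a WT ovary, against 27.3 to 46.5 in 9 MP tumors and 11.8 in the library labelled MP tumor 10. The same expectation was not worked out over all genes. A difference over the whole library therefore cannot be told apart from one in the members. For the members, the 9 tumors were all above the WT ovaries at equal depth and the library labelled MP tumor 10 was below them. That library had 56 members at 0, of which 13 were above 0 in every other MP tumor. At least 1 TPM was reached by 13 to 17 members in WT ovaries and by 21 to 43 in the 9 tumors, with MP tumor 2 the highest. This threshold asks for fewer reads in a shallow library. A single read over 1 kb counts for up to 0.790 TPM in an MP tumor and at most 0.109 TPM in a WT ovary. At least 10 reads were held by 14 to 21 members in WT ovaries (median 19) and by 4 to 36 in MP tumors (median 17.5).

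**Figure D2:**
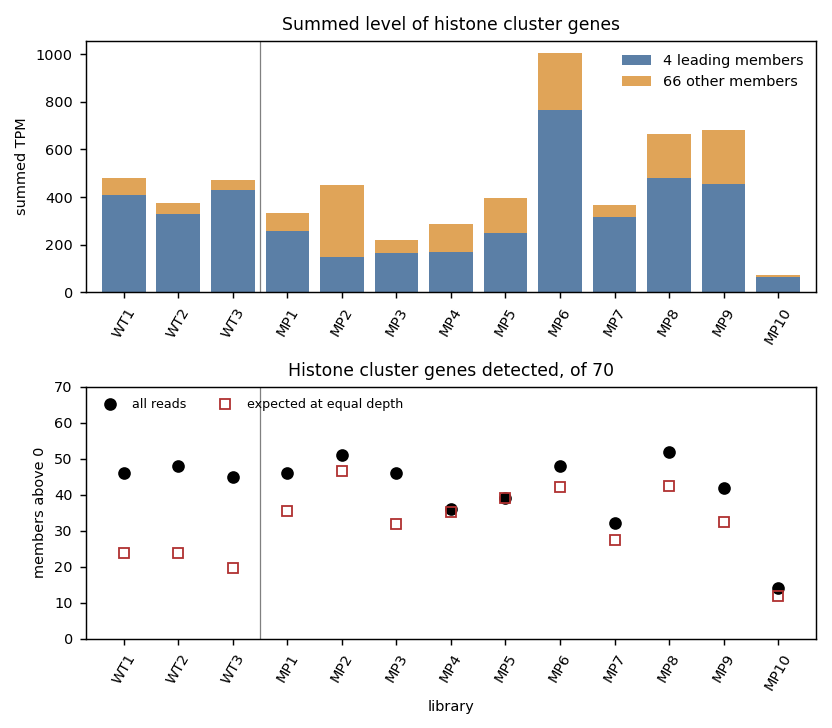
Upper panel, summed TPM of the 70 members in each library, split into the 4 leading members (Hist1h2bc, Hist1h1c, Hist1h4i and Hist2h2be) and the 66 others. Lower panel, members above 0 with all reads (filled circles) and the number expected at 3892690 reads (open squares). The summed level ran from 75.4 TPM in the library labelled MP tumor 10 to 1006 TPM in MP tumor 6, and WT ovaries lose about as many members at equal depth as they keep.

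Summed over members, the level was 480, 375 and 471 TPM in the WT ovaries and had a median of 382 TPM in MP tumors (75.4 to 1006 TPM), so the groups overlapped. The mean was 442 ± 58.3 TPM (SD, n = 3) and 448 ± 269 TPM (SD, n = 10), and which group had the higher mean turned without MP tumor 6, 8 or 9 or WT ovary 2. The 4 members named next averaged 389 ± 54.2 TPM in WT ovaries and 308 ± 208 TPM in MP tumors, and the other 66 averaged 52.5 ± 14.8 TPM and 141 ± 96.2 TPM. Hist1h2bc, Hist1h1c, Hist1h4i and Hist2h2be made up 84.0% of all member reads. Their share of the summed TPM was 85.5% to 91.2% in WT ovaries and 32.6% (MP tumor 2) to 86.7% in MP tumors. The other 66 members summed to 41.4 to 69.3 TPM in WT ovaries and to 10.0 to 304 TPM in MP tumors, with a median of 132 TPM. MP tumor 2, the library with the high ribosomal RNA rows, had the highest value, and it held the highest level of 25 of the 57 detected members. By class those were 8 without a stem-loop, 8 with a short tail and 9 with a long tail. Over the 10 tumors the sum of the other 66 had r = 0.38 and rho = 0.33 with log2 mt-Rnr2. Without MP tumors 2 and 8, those farthest from the median of log2 mt-Rnr2, r was -0.16. Without MP tumor 2 and the library labelled MP tumor 10 r was -0.04. The part of ribosomal RNA carried through selection in these levels was not tested.

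The 3 members with the highest mean level code for an H2B, an H1 and an H4. Hist1h2bc (ENSMUSG00000018102, chr13:23684199-23692908), an H2B gene, was at 137, 123 and 159 TPM in WT ovaries and at 5.56, 84.4 and 281 TPM (lowest, median and highest) in MP tumors. The lowest was the library labelled MP tumor 10 and the highest MP tumor 6, on either side of the WT range, and the log2 fold change was -0.86 with SE 0.79 (limma, adjusted p = 0.451). Hist1h1c, a linker histone, was at 160, 128 and 223 TPM in WT ovaries and at 19.4, 60.7 and 291 TPM in MP tumors. MP tumor 6 alone was above the WT range, and the log2 fold change of -1.36 (SE 0.69) did not pass (adjusted p = 0.180). With project number as a covariate it passed (-2.37, adjusted p = 0.0149), a fit in which the difference rests on project 1. Hist1h4i, an H4 gene, was at 30.5, 26.7 and 14.5 TPM in WT ovaries and at 21.3, 61.2 and 215 TPM in MP tumors. Only MP tumors 4 and 5 lay within the WT range, and the log2 fold change was 1.59 (SE 0.62, adjusted p = 0.0884), which passed without MP tumor 4 (1.78, adjusted p = 0.0454).

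The next members differed in direction. Hist2h2be, an H2B gene known to give polyadenylated mRNA, was at 83.1, 50.4 and 34.0 TPM in WT ovaries and at 2.45, 8.99 and 56.8 TPM in MP tumors. Its levels overlapped because MP tumors 4, 5 and 9 reached 34.8 to 56.8 TPM, and the log2 fold change was -2.12 (SE 0.80, adjusted p = 0.0800). It passed without MP tumor 4 (-2.36, adjusted p = 0.0395), without MP tumor 5 (-2.29, adjusted p = 0.0495) and with project number as a covariate (-3.24, adjusted p = 0.00183). Hist3h2ba, an H2B gene of the Hist3 cluster, was at 0.768, 0.707 and 0.919 TPM in WT ovaries, from 7, 4 and 11 reads. In MP tumors it was at 0, 10.5 and 54.5 TPM, above every WT ovary in all tumors but the library labelled MP tumor 10, where it was listed at 0. The log2 fold change of 2.66 (SE 0.98) did not pass with all libraries (adjusted p = 0.0738) and passed without that library (3.05, adjusted p = 0.0156). With no WT ovary at 1 TPM, Hist3h2ba entered the test through the tumors alone. Its neighbour Hist3h2a, an H2A gene whose exons overlap those of Trim17, was at 14.0, 9.36 and 10.7 TPM in WT ovaries and at 0.2996, 6.60 and 21.5 TPM in MP tumors (log2 fold change -0.72, SE 0.74, adjusted p = 0.504), and this direction turned under quantile normalization (0.27, adjusted p = 0.782).

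Hist1h3g, an H3 gene, was the 1 member of 42 tested that was called in the comparison of all 13 libraries, in which 2.51% of all genes tested were called higher. It was at 0.127, 0.410 and 0.0968 TPM in WT ovaries, from 1, 2 and 1 reads, and at 0, 5.39 and 34.8 TPM in MP tumors. With no WT ovary at 1 TPM, it entered the test through the tumors alone, which favors a positive change. Every MP tumor but the library labelled MP tumor 10, which held no read, lay above every WT ovary. The log2 fold change was 2.54 (SE 0.82, adjusted p = 0.0451). Pooled over libraries, 217 reads in MP tumors stood against 4 in WT ovaries, a ratio of 78.2 per read sequenced with an exact 95% interval of 30.1 to 290 for counting error only. The call is near the threshold. It was lost without any 1 WT ovary (adjusted p from 0.140 to 0.177) and without any 1 of MP tumors 1, 2, 6, 7 or 8 (adjusted p from 0.0520 to 0.0619), and held without the library labelled MP tumor 10 (2.85, adjusted p = 0.00983). limma-voom on the recovered reads also called it, at 5.36 (adjusted p = 0.00138). The limma call was lost with project number as a covariate (2.30, adjusted p = 0.0740), with no filter on low values (adjusted p = 0.0634) and without the tumors of project 1 (2.64, adjusted p = 0.0702). It shares 45.7% of its windows with other genes, among them other H3 genes.

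Hist1h1a and Hist1h1b, both linker histones with 0% of their windows shared, had their highest level in MP tumor 2. Hist1h1b was at 1.18, 0.438 and 1.10 TPM in WT ovaries and at 1.73, 5.23 and 38.8 TPM in MP tumors, so that all 10 tumors were above all 3 WT ovaries, the only member of which this was true. How many of all genes show such a gap was not counted. The log2 fold change of Hist1h1b, 2.03 (SE 0.67), missed the threshold (adjusted p = 0.0508). It passed without the library labelled MP tumor 10 (2.19, adjusted p = 0.0289), without any 1 of MP tumors 1, 2 or 9 (adjusted p from 0.0365 to 0.0478), without MP tumors 2 and 10 (1.92, adjusted p = 0.0182), without the tumors of project 1 (1.92, adjusted p = 0.0275) and with project number as a covariate (2.27, adjusted p = 0.0243). In other alternatives it did not pass, and over all 26 its limma adjusted p ran from 0.0114 to 0.212. Hist1h1a was at 0.454, 0.732 and 0.0692 TPM in WT ovaries and at 0, 4.72 and 48.8 TPM in MP tumors (log2 fold change 1.86, SE 0.87, adjusted p = 0.151), and it passed with project number as a covariate (3.09, adjusted p = 0.00695). It too had no WT ovary at 1 TPM and entered the test through the tumors alone. Hist1h4k, an H4 gene, was at 4.10, 1.39 and 1.15 TPM in WT ovaries and at 0, 6.14 and 31.4 TPM in MP tumors (log2 fold change 1.20, SE 0.77, adjusted p = 0.277), with MP tumor 9 the highest. Hist4h4, although its transcript runs 2445 bases past the stem-loop, reached no more than 1.70 TPM, in MP tumor 2, and was not tested.

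**Figure D3:**
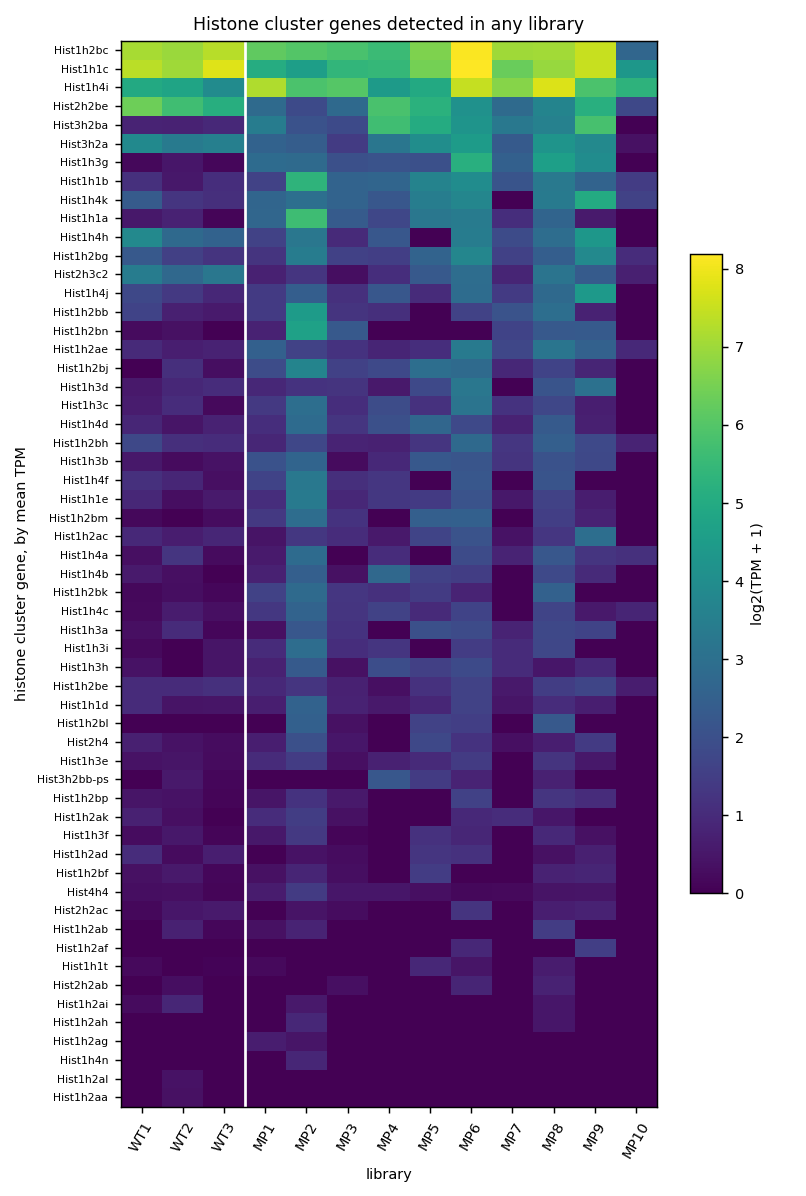
Level of the 57 histone cluster genes detected in any library, as log2(TPM + 1), with genes ordered by mean TPM (rows) and libraries in columns, WT ovaries left of the white line. The column of MP tumor 2 is bright over many genes of middle rank, and the column labelled MP10 is at 0 in 56 of the 70 members.

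Whether members differed between MP tumors and WT ovaries was tested with limma on log2(TPM + 1) over 17277 genes, with P values adjusted over all of them. Of the 42 members that passed the filter of at least 1 TPM in at least 3 libraries, 1 was higher (2.38%) and 0 were lower. Over all genes 433 were higher (2.51%) and 2463 lower (14.3%), so the share of members called higher was close to that of all genes. Median-of-ratios scaling moved the median log2 fold change of all genes tested from -0.58 to -0.02 and the calls to 1274 genes higher and 1897 lower, with 3 members higher and 0 lower. Unadjusted P values under 0.05 were seen for 8 of the 42 members, 6 of them higher, and for 5707 of all genes tested (33.0%). limma-voom on the recovered reads called 20 members higher and 1 lower, with Hist2h2be the lower one, and of all genes 2729 higher (15.8%) and 3042 lower (17.6%). The median log2 fold change was 0.66 over the members tested, on the scale on which all genes had -0.58. However, 20 of the 42 had no WT ovary at 1 TPM or more, and having passed through the tumors alone they were favored by the filter to be positive, as all 20 were. Hist1h3g, the 1 member called, is among them, as are Hist3h2ba and Hist1h1a. Of the 11 members at 1 TPM or more in all WT ovaries, 4 were positive and 7 negative.

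Within project 1, MP tumors 1 to 3 were compared with the 3 WT ovaries, which removes the mixing of project numbers but leaves each WT ovary deeper than each tumor. Of 28 members tested, 12 were higher and 5 lower, against 6.84% of 15239 genes called higher and 62.4% called lower. Of the 28, 9 had no WT ovary at 1 TPM or more and passed the filter through the tumors alone, so that they had to be positive, and 8 of the 12 higher members were among them. Of the 11 members at 1 TPM or more in all WT ovaries, 3 were positive, 2 of them called higher, and 5 were called lower. With a filter of 5 TPM, 8 members were tested, 2 were higher and 5 lower, beside 6.74% and 63.9% of genes, and their median log2 fold change was -1.30 beside -1.68 over all genes. Quantile normalization moved the median of all genes tested from -1.44 to 0.03, the members to 22 higher and 2 lower and all genes to 4882 higher (32.0%) and 4701 lower (30.8%). The lower members were Hist2h2be (log2 fold change -3.24, SE 0.43), Hist2h3c2 (-2.37, SE 0.32), Hist1h1c (-2.37, SE 0.38), Hist3h2a (-1.47, SE 0.35) and Hist1h2bc (-1.11, SE 0.32). Those include 4 of the 5 members with the highest WT levels, and Hist2h3c2 is an H3 gene. The higher ones were 2 H1, 1 H2A, 4 H2B, 2 H3 and 3 H4 genes, led by Hist1h1a (3.09, SE 0.80), Hist1h3g (2.30, SE 0.28) and Hist1h1b (2.27, SE 0.85). Of these, Hist1h1a and Hist1h3g are among the 9 members that passed through the tumors alone and had to be positive. The members in this paragraph were named for passing this test, after their values had been seen. Leaving out any 1 of the 3 tumors takes the 9 members that passed through the tumors alone out of the test, so the fall in the number higher is in large part set by the filter. Without MP tumor 1 (19 members tested) or MP tumor 3 (17 tested) the counts came to 5 higher and 5 lower each time, beside 5.54% and 4.56% of genes higher and 68.7% and 62.0% lower. Without MP tumor 2, 17 members were tested, 3 were higher (Hist1h1b, Hist1h2bj and Hist1h4i) and 6 lower, beside 12.5% and 62.8% of genes. The same 5 members were lower with and without it.

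**Figure D4:**
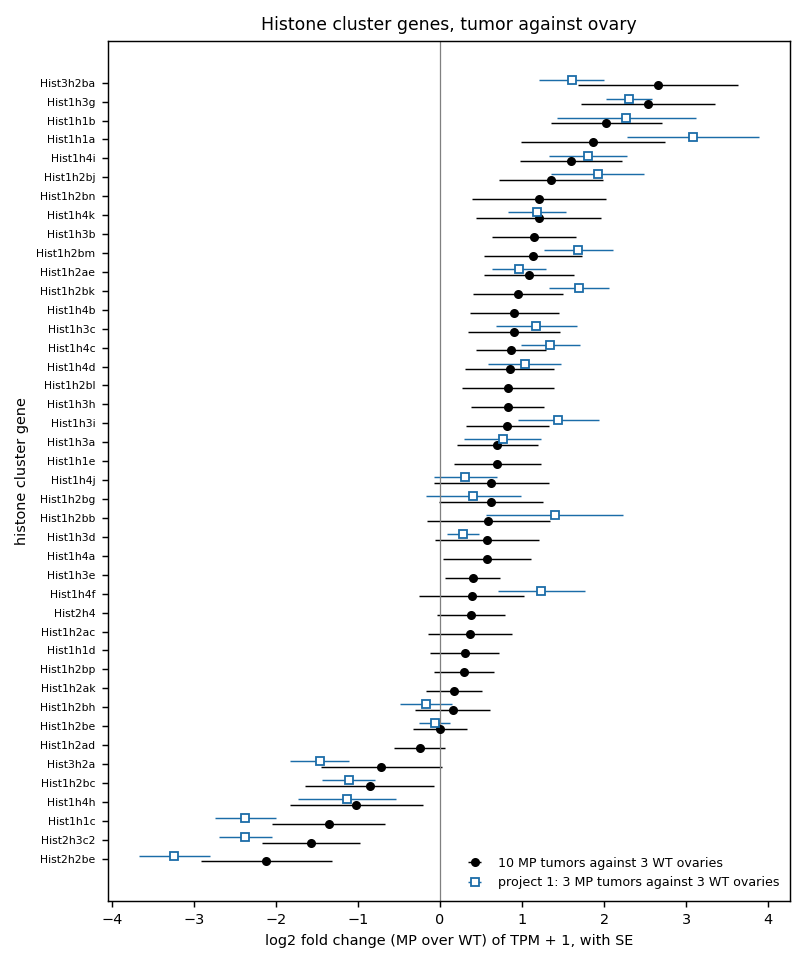
Log2 fold change of TPM + 1, MP over WT, with its standard error, for the 42 members tested over all 13 libraries (filled circles) and the 28 tested within project 1 (open squares). Hist3h2ba and Hist1h3g lie at the top and Hist2h2be, Hist2h3c2 and Hist1h1c at the bottom in the comparison of 13 libraries, and the values within project 1 reach further down for those 3.

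Whether levels follow the project was tested among the 10 tumors, 3 of project 1 against 7 of the others. With limma, 0 of 41 members were called higher and 0 lower, and 1, Hist1h1c, had an unadjusted P value under 0.05. Over 15833 genes 1.42% were called higher and 33.6% lower, and 46.1% had an unadjusted P value under 0.05. limma-voom also called 0 members. Without the library labelled MP tumor 10, 4 of 41 members were lower in the tumors of project 1, beside 4937 of 15294 genes (32.3%). They were Hist3h2ba (log2 fold change -2.16, adjusted p = 0.0165), Hist2h2be (-1.99, adjusted p = 0.0234), Hist1h1c (-1.80, adjusted p = 0.0181) and Hist3h2a (-1.55, adjusted p = 0.0329). Without MP tumor 1, 1 member was higher, beside 0.608% of genes higher and 31.1% lower. Under quantile normalization 6 of 41 members were higher instead, with Hist1h1a at 2.93, beside 10.8% of genes higher and 9.06% lower. In this comparison tumors 1 to 3 were also the only ones of that project, so project and tumor cannot be told apart beyond these libraries.

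Whether levels follow depth was tested over the 10 tumors with log2 reads as a term. limma called 0 of 41 members and 0 of 15833 genes (0%), with 1 member, Hist1h4i (slope 0.88 on the log2 scale per doubling of reads), and 3205 genes at an unadjusted P value under 0.05, and limma-voom called 0 members. The summed level of members had r = 0.20 and rho = 0.12 with log2 reads (n = 10), and r = 0.45 without MP tumors 3 and 5, the libraries farthest from the median depth. Without MP tumor 2 and the library labelled MP tumor 10 r was -0.03 and rho -0.14 (n = 8). The median slope over members was 0.21, with 33 of 41 positive, beside -0.32 over all genes, and with project number as a covariate 0.53, with 40 of 41 positive, beside 0.06. In that limma fit 6 of 41 members, all positive, had an unadjusted P value under 0.05, as had 626 of 15833 genes (3.95%). It called 0 members and 0 genes. The libraries share the tumor type, and depth differs between project numbers, so these values are a description.

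Whether levels follow proliferation was tested with an index, the mean log2(TPM + 1) of 30 proliferation genes that hold no histone. The index was 4.77 to 5.56 in WT ovaries and 5.24 to 7.07 in MP tumors, and 12 of the 30 genes were higher in MP tumors and 0 lower, with DNA replication gene Gins2 (log2 fold change 2.21, adjusted p = 0.00229), thymidine kinase Tk1 (2.12, adjusted p = 0.00273) and cyclin Ccnb2 (1.26, adjusted p = 0.0139) at the front. Mki67 (0.30, adjusted p = 0.796) and Pcna (1.31, adjusted p = 0.0513) did not pass. Median-of-ratios scaling and removal of the length trend each gave 26 of the 30 higher, and within project 1 there were 11 higher and 1 lower, Mki67 (-1.06, adjusted p = 0.0358). Over the 10 tumors limma called 0 of 41 members and 0 of 15833 genes (0%) with the index, while 1 member, Hist1h4b (slope -0.94 on the log2 scale per unit of the index), and 3657 genes had an unadjusted P value under 0.05. limma-voom also called 0 members. Without MP tumor 4, 1 member was called, Hist1h2bn (slope -2.15, adjusted p = 0.0350), in a fit that called 2933 of 15430 genes positive and 30 negative. Median-of-ratios scaling called Hist1h4i (2.00, adjusted p = 0.0432), beside 79 genes positive and 157 negative. With Mki67 alone as the index, 0 members were called and 23 of 41 were positive, while 4705 genes were called positive (29.7%) and 158 negative, so the count over all genes depended on the index and on MP tumor 4. Over members tested the median slope was -0.17, with 15 of 41 positive, and over all genes 0.51. Its sign depended on scaling, on the index and on single libraries. It was 0.25 without MP tumor 2 (0.29 over all genes), 0.08 without the library labelled MP tumor 10, with 22 of 41 positive (0.48 over all genes), and 0.05 with Mki67 as the index (0.31 over all genes). It was 0.55 with median-of-ratios scaling and 0.52 with quantile normalization, with 36 of 41 positive each time, beside -0.02 and 0.07 over all genes, and -0.90 with voom, beside -0.03.

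The summed level and the index had r = 0.06 and rho = 0.21 over 10 tumors, and r = 0.08 without MP tumors 4 and 2, those farthest from the median index. The library labelled MP tumor 10 had the highest index and the lowest summed level, and MP tumor 2 had an index of 5.27, near the lowest, with a summed level of 451 TPM. Without these 2 libraries r was 0.73 and rho 0.81 over 8 tumors, a leaving-out chosen after the data had been seen. For the 4 leading members r rose from 0.37 to 0.84 and for the other 66 from -0.32 to 0.32. In the fits per gene, leaving out both libraries gave 0 members called, the median slope over members became 0.62 beside 0.22 over all genes, and 6 of 38 members, all positive, had an unadjusted P value under 0.05, as had 1026 of 15170 genes (6.76%).

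**Figure D5:**
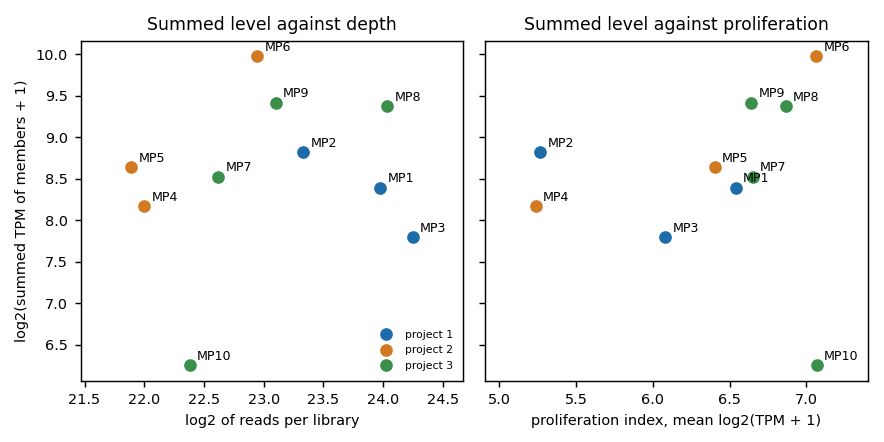
Summed TPM of the 70 members plus 1 on a log2 axis against log2 reads per library (left) and against the proliferation index (right) in the 10 MP tumors, colored by project number. The library labelled MP10 lies lowest in both panels at the highest index of 7.07, and MP2 lies high at an index of 5.27.

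Other genes that supply or replace these histones were compared from lists. Of 31 genes for transcription and 3′ processing of histone mRNA, 2 were higher in MP tumors and 0 lower, Ccne1 (log2 fold change 2.39, adjusted p = 0.0144) and Ccne2 (1.74, adjusted p = 0.0427), the cyclins E that act at the start of S phase. The third by statistic, Snrpg, did not pass (1.27, adjusted p = 0.115). Slbp, whose protein binds the stem-loop, was at 20.8 to 29.4 TPM in WT ovaries, at 11.7 to 37.5 TPM in 9 MP tumors and at 154 TPM in the library labelled MP tumor 10, the library with the fewest members detected (log2 fold change 0.25, SE 0.56, adjusted p = 0.767). Npat, the coactivator of histone gene transcription, did not pass either (-0.35, adjusted p = 0.640). Of 25 histone chaperone and import genes 3 were higher and 0 lower, Npm1 (1.81, adjusted p = 0.00527), Nap1l1 (1.32, adjusted p = 0.0102) and Set (1.07, adjusted p = 0.0494).

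Most histone variants encoded outside the clusters are made throughout the cell cycle and give polyadenylated mRNA. Of 17 genes 12 were tested, 2 were higher and 1 lower. Cenpa, the H3 variant of centromeres, was at 14.6 to 22.02 TPM in WT ovaries and at 54.5 to 198 TPM in MP tumors with no overlap (log2 fold change 2.49, SE 0.40, adjusted p = 5.24e-04). H2afj was also higher (1.36, adjusted p = 0.0489). H1foo, the oocyte linker histone, fell by 5.44 on the log2 scale (SE 0.53, adjusted p = 3.26e-06), beside the oocyte markers of which it is one. The other named variants did not pass, with log2 fold changes of 1.51 for H2afx, 0.78 for H2afz, -0.05 for H3f3a, -0.68 for H3f3b and -1.22 for H1f0 and adjusted p from 0.0958 to 0.934. Under a length trend correction 4 variants, 9 processing genes and 9 chaperones were higher, beside 10.4% of all genes, so the counts for these lists depend on scaling.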

How the data were processed

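The authors deposited TPM values (whole-gene values that sum to 1000000 per library) of 53465 mouse genes in 3 WT ovaries and 10 MP tumors, with replicates not pooled. The submitters' processing notes name FastQC 0.11.5, Trimmomatic 0.36, STAR 2.5.3a and featureCounts 1.6.3 with GRCm38, whereas the labels' protocol names a human build and RPKM, and all 70 members carry the coordinates of GENCODE M21, so the table was followed. Each column name equals the description of 1 sample, and 0 columns were left unused. TPM times length was a whole multiple (within 0.01) of 1 step in 100% of values, and this step was taken as 1 read. The study's methods count n in biological replicates unless stated otherwise, and chi-square per degree of freedom between libraries of a group was 25.8 to 591, so none repeats another.

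Genes with at least 1 TPM in at least 3 of the libraries fitted were tested with limma 3.58.1 (trend, robust; R 4.3.3) on log2(TPM + 1), a scale that understates changes of low genes, with Benjamini-Hochberg adjustment over all genes and a threshold of 0.05. P values measure the spread between libraries. The members, gene lists and tests were chosen with earlier results of these data known. Members named with values were the 10 with the highest mean TPM, those past the threshold, 5 known to give polyadenylated mRNA and 3 testis-type ones, with the 3 strongest genes of each other list and 9 fixed ones. Alternatives varied pseudocount, filter, scaling, length trend, moderation, voom on recovered reads, project number, replicate number and single libraries. Leaving out MP tumors 2 and 10 together, and single libraries for the summed level, was added after the data were seen. Expected detection at equal depth used the exact rarefaction formula. Scripts were tested on simulated data. Summaries used Python 3.11.15 and pandas 2.3.3, and plots matplotlib 3.10.9. Human tumor data, protein sequences and genomic DNA were not used here.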

Additional observations from a re-analysis of the deposited data

Results flagged for a closer look

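In 8 of 30 measures compared over the 10 MP tumors, the highest or the lowest library lay farther from its neighbour than Dixon's 95% limit, set on the gap as a share of the group's range. For values with a normal spread, chance gives such a gap in about 1 of 20 groups. Most of the measures were TPM values taken without a log scale, so this rate need not hold for them. Groups of 3 libraries were not examined. MP tumor 2 was set apart in 4 of the 8 measures. It held Hist1h1a at 48.8 TPM, where the next tumor held 9.59 TPM, Hist1h1b at 38.8 TPM (next 14.8 TPM), Hist4h4 at 1.70 TPM (next 0.535 TPM) and the mitochondrial ribosomal RNA mt-Rnr2 at 71333 TPM (next 5653 TPM). The part of the ribosomal RNA in the histone levels was not tested.

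The library labelled MP tumor 10 was set apart in 3. It had 14 histone cluster genes above 0, where the next lowest tumor had 32, and held Slbp at 154 TPM and Trp53 at 187 TPM, where the next tumors held 37.5 and 26.0 TPM. MP tumor 9 held Hist1h4k at 31.4 TPM, from 26 reads, and the next tumor 12.5 TPM.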

How the results depend on the processing

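In the comparison of 13 libraries, 1 histone cluster gene was higher and 0 lower. The number higher became 2 with a pseudocount of 0.1 or 0.5, with the length trend removed and without moderation options, 0 with no filter, 3 with median-of-ratios scaling or without MP tumors 2 and 10 (chosen after the data were seen), 5 with quantile normalization, 20 with voom, 7 with project number as a covariate and 0 to 3 with 1 library left out. The number lower became 1 with voom, 3 with project number as a covariate and 0 to 1 with 1 library left out. Same-numbered libraries come from different animals and did not deviate together (r = -0.05, 0.02 and -0.04), and the replicate block gave 13 higher and 4 lower. The shares of all genes moved too, to 5.17% higher and 49.4% lower with the covariate and to 6.29% and 56.7% with the block. Quantile normalization called 1904 of 17277 genes higher and 2091 lower. The share higher was 7.37% with median-of-ratios scaling, 10.4% with the length trend removed and 15.8% with voom. Without MP tumors 2 and 10 the share higher was 4.03%. Hist3h2a turned to 0.27 under quantile normalization.

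Within project 1, 12 higher became 2 with a filter of 5 TPM, 22 with quantile normalization, 20 with voom and 3 to 8 with 1 library left out, and the replicate block gave 14 and 5. The 5 lower became 3 with median-of-ratios scaling, the length trend removed or voom, 2 with quantile normalization and 4 to 6 with 1 library left out. Of all genes 29.4% were higher with voom. The shares lower were 37.0% with median-of-ratios scaling, 29.0% with the length trend removed and 38.1% with voom. With 1 library left out 4.56% to 12.5% of genes were higher and 47.0% to 68.7% lower. Between tumors of project 1 and the others, 0 higher became 2 with median-of-ratios scaling, 6 with quantile normalization, 1 with the length trend removed and 0 to 1 with 1 library left out, and 0 lower became 0 to 4. No member was called with depth under any alternative. With the proliferation index, median-of-ratios scaling gave 1 higher, leaving out 1 library 0 to 1 lower, and Mki67 alone 0 of either.

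The median number detected in WT ovaries fell from 46 to 23.8 at equal depth. The log2 ratio of mean summed levels, 0.02, was 0.84 with median-of-ratios scaling, 0.18 without Hist1h2bc, 0.16 without MP tumors 2 and 10 and -0.19 to 0.15 with 1 library left out (chosen after the data were seen), so its sign was not stable. Of 30 proliferation genes, 12 higher became 26 with median-of-ratios scaling or the length trend removed and 11, with 1 lower, within project 1. Of the other lists, 2 histone variants higher became 4 with the length trend removed, and 1 lower became 5 within project 1. For processing genes, 2 higher became 8 with median-of-ratios scaling, 9 with the length trend removed and 4 within project 1, where 0 lower became 10. For chaperones, 3 higher became 9 with median-of-ratios scaling and with the length trend removed, and 0 lower became 10 within project 1. Of all genes tested, 6.84% were higher and 62.4% lower within project 1. Over 13 libraries 7.37% were higher with median-of-ratios scaling and 10.4% with the length trend removed. The causes of these changes were not tested.

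Depth limits members with low levels, since a single read over 1 kb can count for 0.790 TPM in an MP tumor, and shared sequence limits 40 of 57 detected members.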
